A study of Mus musculus with 13 samples.

Results

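The genes described here are 7 genes linked to eosinophils, Siglecf, Ccr3, Il5ra, Epx, Prg2, Alox15 and Rnase2a (formerly Ear11), and 2 eotaxin genes, Ccl11 and Ccl24. They are 9 of the 18818 genes with a named probe set on the arrays. The set was proposed as a list of names with earlier results of these arrays known, and Rnase2a was singled out for its high level in wild type fat after the glycolipid. Each of the 9 genes had exactly 1 probe set, so the rule that takes the probe set with the highest mean made no choice.

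RNA from epididymal white fat was hybridised to 13 Affymetrix gene arrays, 1 per sample. All mice were males of 6.5 weeks, were put on a high fat diet on day 0, and were killed on day 4. Wild type mice of the background strain C57Bl/6J received intraperitoneal vehicle (pyridine) on days 0 and 2 (n = 3) or α-galactosylceramide (αGalCer) at 100 ng per g body weight on the same days (n = 4). CD1d knockout mice, the strain B6.129S6-Cd1d1/Cd1d2tm1spb/J that carries a germline deletion in every cell, received the same vehicle (n = 3) or αGalCer (n = 3). αGalCer is a glycolipid that CD1d presents to invariant natural killer T cells, so the knockout lacks both the presenting molecule and the cells selected on it. The knockout line was bought and bred in the facility, and no littermate relation between the genotypes is stated. The arrays are of whole fat, so fewer cells of a type and less RNA per cell cannot be told apart in any value below.

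Eosinophils are granulocytes that depend on interleukin 5 and carry granules of cationic proteins. They follow the eotaxins, chemokines that act through the receptor Ccr3, out of the blood. In mouse visceral fat they are resident cells, are known as a source of interleukin 4, and live beside macrophages that this cytokine polarises.

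Levels are RMA values on the log2 scale, where a step of 1 is a doubling of the signal, and they come from single probe sets that cannot be ranked against each other by transcript abundance. A gene was called where the limma model of all 13 arrays gave an adjusted p under 0.05 over all 18818 genes. In wild type fat 6 of the 9 genes were called for αGalCer, 4 higher and 2 lower, and 5 of the 9 had groups that did not overlap. Over all genes 41.9% were called, 19.8% higher and 22.0% lower, and 46.7% had groups that did not overlap. Rnase2a counts among the 6 although it was singled out for this rise, so nothing is read from the count, and the following values describe each gene. In knockout fat none of the 9 was called, against a background of 0.0% (0 genes of 18818 in limma). An unadjusted p under 0.05 was found for 1281 genes, 6.81%, and for 2 of the 9, and 3 of the 9 had groups that did not overlap, against 13.8% of all genes. The difference of the αGalCer effects between genotypes was called for 3 of the 9, against 28.2% of all genes.

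The knockout label was borne out by Cd1d1, which stood at 10.69 ± 0.15 (SD) in wild type vehicle arrays and 3.73 ± 0.29 in knockout vehicle arrays, with 9.63 ± 0.40 and 3.14 ± 0.47 after αGalCer. Some arrays held signal of other tissues. The mean of 8 skeletal muscle markers was 8.47 and 6.63 in knockout vehicle replicates 1 and 2 and 8.85 in knockout αGalCer replicate 3, against 4.61 to 5.75 in the other arrays. The mean of 8 ductal and ciliated epithelium markers was 7.74 and 8.15 in wild type vehicle replicates 1 and 3 and 8.79 in knockout vehicle replicate 1. It was 6.19 and 6.72 in replicate 2 of each vehicle group and 4.95 to 5.48 in the other 8 arrays. Among 7 epididymis markers only Adam7 stood out, at 9.34 in wild type vehicle replicate 3 against 3.08 to 4.19 in the other arrays. Values without the muscle or the epithelium arrays are given where they change a call of the 9 genes. Without the 3 arrays highest in epithelium markers only replicate 2 of the wild type vehicle group is left. Without the muscle arrays only replicate 3 of the knockout vehicle group is left. A call can be gained or lost through this alone, so only the changes are given for these settings.

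Siglecf encodes the sialic acid binding lectin Siglec-F, carried by mouse eosinophils and alveolar macrophages. Its levels were 5.88, 5.94 and 5.95 in wild type vehicle arrays and 6.34, 6.17, 6.26 and 6.47 after αGalCer. The groups did not overlap, and the rise of 0.39 ± 0.11 (SE), 1.31-fold, had an adjusted p of 0.0109 in limma. In knockout arrays Siglecf read 6.04, 5.89 and 6.28 after vehicle and 6.31, 6.37 and 6.29 after αGalCer. These groups did not overlap either, but the change of 0.25 ± 0.12 had an adjusted p of 0.723. The difference of the effects was -0.13 ± 0.16 with a 95% interval of -0.48 to 0.21 (adjusted p = 0.623), so no difference between genotypes was shown and a small one either way remains within the interval. After αGalCer the genotypes had nearly the same mean, 6.31 and 6.32, and the interval of their difference ran from -0.22 to 0.25. Without the 3 arrays highest in epithelium genes, which leaves 1 wild type vehicle array, the wild type rise was 0.37.

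Ccr3 encodes the eotaxin receptor, carried by eosinophils, basophils and some T cells. It varied more within 1 group than Siglecf or Il5ra: the wild type vehicle arrays read 3.55, 5.54 and 4.72. The wild type αGalCer arrays read 4.91, 5.13, 5.32 and 5.33, inside that range. The change of 0.57 ± 0.34 was not called (adjusted p = 0.208). It was set by single vehicle arrays: it was 0.04 without replicate 1 (adjusted p = 0.908) and 1.04 without replicate 2 (adjusted p = 0.00836). Without the 3 arrays highest in epithelium genes, which leaves vehicle replicate 2 alone, the change was -0.37. In knockout arrays Ccr3 read 4.73, 4.86 and 4.68 after vehicle and 5.51, 5.56 and 5.03 after αGalCer. The knockout groups did not overlap, and the change of 0.61 ± 0.36 had an adjusted p of 0.766. Between genotypes the Ccr3 effects differed by 0.04 ± 0.49 (adjusted p = 0.97). They differed by 0.97 without the 3 arrays highest in epithelium genes, again with vehicle replicate 2 alone in wild type.

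Il5ra encodes the α chain that gives the interleukin 5 receptor its specificity. It moved the other way from Siglecf. Wild type vehicle arrays read 3.62, 3.84 and 3.68, and wild type αGalCer arrays 3.19, 3.13, 3.38 and 3.61. The highest αGalCer value lay just under the lowest vehicle value. Il5ra fell by 0.39 on the log2 scale (SE 0.11), with an adjusted p of 0.0124, and it lost this call without wild type vehicle replicate 2 (adjusted p = 0.0573). In knockout arrays it read 3.73, 3.92 and 3.93 after vehicle and 3.94, 3.94 and 3.80 after αGalCer, a change of 0.04 ± 0.12 (adjusted p = 0.949). After αGalCer the knockout arrays were all above the wild type arrays, by 0.57 ± 0.11 (adjusted p = 0.000935). Between the genotypes the effects differed by 0.42 ± 0.16, which was not called (adjusted p = 0.0712). It was called without wild type αGalCer replicate 4 (0.52, adjusted p = 0.0142).

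The granule genes gave dim signals in every group. Epx encodes eosinophil peroxidase, and Prg2 encodes major basic protein, the core of the eosinophil granule. Epx read 3.57, 3.51 and 3.66 in wild type vehicle arrays, 3.84, 4.01, 3.66 and 3.66 after αGalCer, 3.50, 3.66 and 3.74 in knockout vehicle arrays, and 3.67, 3.59 and 3.78 after αGalCer. All 4 groups overlapped for Epx. Its wild type change of 0.21 ± 0.10 had an adjusted p of 0.105, and its knockout change of 0.05 ± 0.11 one of 0.925. Prg2 ranged over all arrays from 3.79 to 4.12, with changes of -0.08 ± 0.08 in wild type (adjusted p = 0.503) and 0.04 ± 0.09 in knockout (adjusted p = 0.934). As a measure of distance from the floor of the arrays, and not of transcript abundance, the mean signals of Il5ra, Epx and Prg2 over all arrays stood at the percentiles 13.1, 13.2 and 17.5 of all 18818 signals, and those of Ccr3 and Siglecf at 32.3 and 46.1. No detection calls were used here, so none of them is called absent. RMA understates changes that start near this floor.

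The label of the set was therefore checked on these 5 genes, Siglecf, Ccr3, Il5ra, Epx and Prg2, which were also the defining eosinophil markers. Their mean level was 4.14 to 4.56 in wild type vehicle arrays, 4.44 to 4.61 after αGalCer, 4.39 to 4.51 in knockout vehicle arrays and 4.60 to 4.70 after αGalCer. The wild type groups overlapped and the knockout groups did not. In wild type fat Siglecf rose and Il5ra fell, so the 5 markers did not change in 1 direction there. The genes with large changes described below are not markers of that cell alone. With Prg3, Cd300lf and Adgre4 added, the mean of the 8 markers went from 4.27 to 4.66 to 5.02 to 5.19 in wild type arrays, and the largest part came from Cd300lf, which macrophages and neutrophils also carry. Prg3, a second major basic protein, changed by 0.11 ± 0.12 (adjusted p = 0.549).

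**Figure D1:**
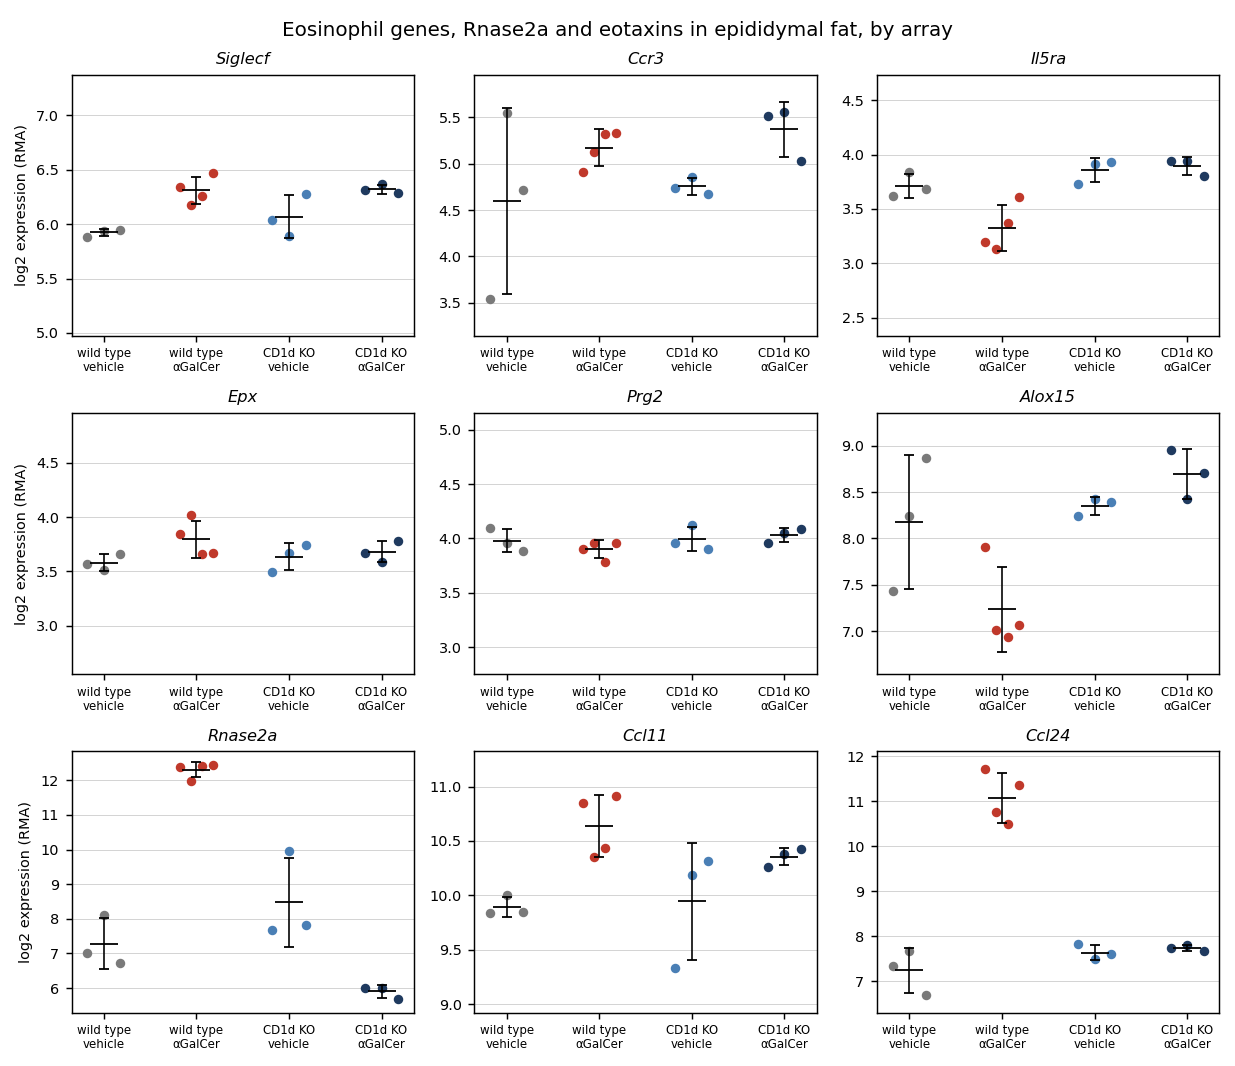
Log2 expression (RMA) of the 9 genes in each of the 13 arrays, by genotype and injection; points are arrays, and the bar and whiskers are the mean and SD of a group. Rnase2a and Ccl24 stand high in the 4 wild type αGalCer arrays (11.98 to 12.43 and 10.49 to 11.71), while Il5ra, Epx and Prg2 stay between 3.13 and 4.12 in all arrays.

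Alox15 encodes 12/15-lipoxygenase, which oxygenates arachidonic acid and is made in mice by eosinophils and by resident macrophages of the peritoneal cavity. Wild type vehicle arrays read 7.43, 8.24 and 8.86, and wild type αGalCer arrays 7.91, 7.01, 6.94 and 7.07. The groups overlapped through αGalCer replicate 1, which stood above the other 3. Alox15 fell by 0.94 on the log2 scale (SE 0.30), which is 1.92-fold lower, with an adjusted p of 0.0215. The call was lost without wild type vehicle replicate 3 (-0.60, adjusted p = 0.121) and without vehicle replicate 2 or αGalCer replicate 2, 3 or 4 (adjusted p from 0.0522 to 0.0595). In knockout arrays Alox15 read 8.24, 8.43 and 8.39 after vehicle and 8.95, 8.42 and 8.71 after αGalCer, a change of 0.34 ± 0.32 (adjusted p = 0.815).

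After αGalCer every knockout array was above every wild type array for Alox15, by 1.46 ± 0.30, 2.76-fold, with an adjusted p of 0.00134. The difference of the effects was 1.29 ± 0.44 (adjusted p = 0.043). It lost the call in 13 of 24 other settings, and over all 24 it lay between 0.94 and 1.66. Without the 3 arrays high in muscle genes, which leaves 1 knockout vehicle array, the difference was 1.25. The order of the group means was wild type αGalCer (7.23), wild type vehicle (8.18), knockout vehicle (8.35) and knockout αGalCer (8.70), and of these neighbours only the lowest pair was called different. Of the 7 other markers of large peritoneal macrophages, a list that holds Alox15 itself, 3 were called lower in wild type fat after αGalCer and none higher, against 22.0% of all genes called lower. Gata6, the transcription factor that defines these cells, fell by 0.81 on the log2 scale, Garnl3 by 0.79 and Cd93 by 0.70. The changes of Icam2 (-0.13), Prg4 (-0.05), Timd4 (-0.04) and Selp (0.10) were not called. The mean of the list of 8, Alox15 included, was 7.97 to 8.45 in wild type vehicle arrays and 7.66 to 8.00 after αGalCer, against 8.19 to 8.34 and 8.36 to 8.63 in knockout arrays. Whether these transcripts came from such macrophages in whole fat was not tested, nor was the part of the cells in the Alox15 levels.

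Rnase2a encodes a secreted ribonuclease of the eosinophil-associated family, a rodent group that duplicated many times from the ancestor of the human eosinophil ribonucleases. In mouse lung it is known to be induced during allergic inflammation, in macrophages as well as eosinophils. Wild type vehicle arrays read 7.02, 8.12 and 6.73. The 4 wild type αGalCer arrays read 12.37, 11.98, 12.41 and 12.43, all above every other array of the study. The rise was 5.01 ± 0.47 with a 95% interval of 4.00 to 6.02, or 32.3-fold, and no test is given because Rnase2a was singled out for it.

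In knockout fat the Rnase2a values lay lower after αGalCer than after vehicle, without passing the test over all genes. Knockout vehicle arrays read 7.66, 9.96 and 7.82, and knockout αGalCer arrays 6.01, 6.01 and 5.70. The groups did not overlap, which was true in the lower direction for 6.04% of all genes and for 1 of the 9 here. The change was -2.58 ± 0.50, 5.97-fold lower, with an unadjusted p of 0.000204 and an adjusted p of 0.72 in limma. Knockout vehicle replicate 2, the highest of its group, carried part of the size: without it the change was -1.84 (adjusted p = 0.325). Its muscle marker mean was 6.63, while replicate 1, the lowest of its group for Rnase2a, had 8.47. Knockout αGalCer replicate 3, with the lowest Rnase2a value, had a muscle mean of 8.85. The part of muscle in these levels was not tested. With array weights in the fit the change was -3.68 (adjusted p = 0.00659). A change of that size needs most of the weight on knockout vehicle replicate 2 (9.96), since replicates 1 and 3 read 7.66 and 7.82. The knockout αGalCer arrays were also below every wild type vehicle array.

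The order of the Rnase2a group means was therefore knockout αGalCer (5.90 ± 0.18, SD, n = 3), wild type vehicle (7.29 ± 0.73, n = 3), knockout vehicle (8.48 ± 1.28, n = 3) and wild type αGalCer (12.30 ± 0.21, n = 4). The vehicle groups overlapped, and the knockout excess of 1.20 ± 0.50 was not called (unadjusted p = 0.0328, adjusted p = 0.696). Without knockout vehicle replicate 2 it was 0.46. After αGalCer the genotypes differed by -6.40 ± 0.47, 84.2-fold lower in the knockout, and the difference of the effects was -7.59 ± 0.68 with an interval of -9.07 to -6.11. Both are given as descriptions, since they contain the group for which the gene was chosen.

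The start of Rnase2a lies on chromosome 14 in a cluster of related copies, where only the protein-coding genes Ang2 and Ear14 separate it from Rnase2b. The promoter windows of this pair are printed because both genes had their highest level in the same 4 arrays and their upstream sequences are alike. The windows hold 250 bases before and 50 after the start, from RefSeq on the mouse assembly GRCm38.p6. Rnase2a is at chr14:51256063-51256362 on the minus strand and Rnase2b at chr14:51162010-51162309 on the plus strand. Capitals mark bases with no identical partner in the aligned other window, bases that lie beyond its ends included.
Rnase2a: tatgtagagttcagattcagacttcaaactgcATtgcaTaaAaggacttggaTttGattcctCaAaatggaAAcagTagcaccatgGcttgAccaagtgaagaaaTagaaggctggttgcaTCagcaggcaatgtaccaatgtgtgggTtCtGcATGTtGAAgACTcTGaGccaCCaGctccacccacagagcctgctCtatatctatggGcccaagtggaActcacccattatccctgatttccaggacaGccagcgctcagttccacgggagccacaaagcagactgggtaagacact
Rnase2b: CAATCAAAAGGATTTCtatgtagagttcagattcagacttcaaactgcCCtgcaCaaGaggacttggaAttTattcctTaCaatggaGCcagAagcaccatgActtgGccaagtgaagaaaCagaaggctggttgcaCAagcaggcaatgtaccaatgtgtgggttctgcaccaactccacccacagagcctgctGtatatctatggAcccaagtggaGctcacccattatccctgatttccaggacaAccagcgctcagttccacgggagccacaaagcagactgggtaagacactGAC
Of 300 aligned positions, gaps included, 261 were identical, which is 87% in all. The Rnase2a window was 89.6% identical to that of Ear6 over 278 aligned positions, and 81.6%, 81.1% and 81.4% identical to those of Ear1, Ear2 and Ear10 over 277, 275 and 279 positions.

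Probe sequences were not used here, so signal shared between such copies could not be told apart. Rnase2b read 3.02, 3.21 and 3.13 in wild type vehicle arrays and 5.72, 5.07, 5.29 and 5.57 after αGalCer, without overlap, and it stayed between 3.09 and 3.23 in all 6 knockout arrays. Its rise in wild type was 2.29 ± 0.13, 4.90-fold, with an adjusted p of 7.43e-08, and its knockout change was -0.01 ± 0.14. Rnase2b thus rose in the same arrays as Rnase2a, from near the floor, and its knockout groups overlapped. Ear6, whose window was the most alike among the long alignments, read 3.97 to 4.16 in wild type vehicle arrays and 4.37 to 4.91 after αGalCer. It rose by 0.47 ± 0.12 (adjusted p = 0.00634). Its change was 0.39 without the 3 arrays highest in epithelium genes. Ear14 stayed between 2.97 and 3.37 in all arrays, with a wild type change of -0.09 ± 0.08 (adjusted p = 0.4).

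Rnase6, a more distant ribonuclease of the same superfamily with antibacterial activity, which monocytes and macrophages express, read 6.86 to 7.20 in wild type vehicle arrays and 9.01 to 9.46 after αGalCer. It rose by 2.14 ± 0.13, 4.39-fold (adjusted p = 1.25e-07), and stayed at 7.04 to 7.47 in knockout arrays. The differences of the effects were called for Rnase2b (-2.31 ± 0.19, adjusted p = 6.94e-06) and Rnase6 (-2.15 ± 0.19, adjusted p = 1.13e-05). They were not called for Ear6 (-0.39 ± 0.17, adjusted p = 0.124). In all, 4 of the 6 measured genes of the granule and ribonuclease list were called higher in wild type fat and none lower. Over all genes 19.8% were called higher and 22.0% lower. The fourth, Serpinb2, an intracellular protease inhibitor of macrophages, changed by 1.35 ± 0.50 with overlapping groups (adjusted p = 0.0459), and it was 0.88 without wild type vehicle replicate 1 (adjusted p = 0.213). Ear1, Ear2 and Ear10 had no probe set named for them alone, and Rnase4 and Ang had only probe sets named for several genes.

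**Figure D2:**
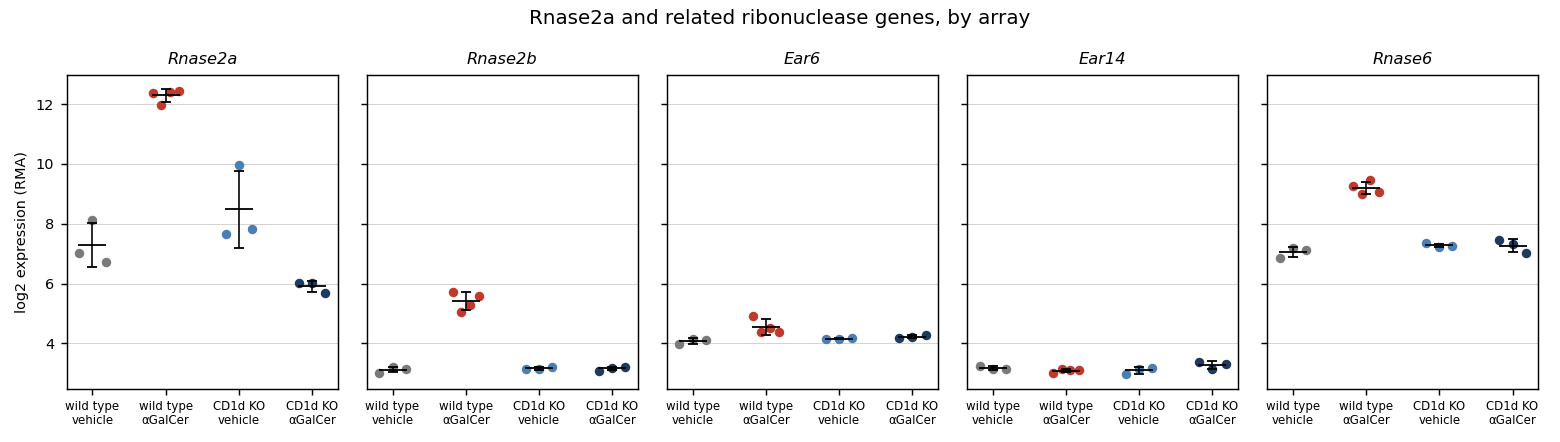
Log2 expression (RMA) of Rnase2a and 4 related ribonuclease genes in each array, on 1 shared axis; points are arrays, and the bar and whiskers are the group mean and SD. The 4 wild type αGalCer arrays are the highest for Rnase2a, Rnase2b, Ear6 and Rnase6, and only Rnase2a is lowest in the knockout αGalCer arrays.

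Short letter strings that some factors bind were counted on both strands of these windows, as a description of the letters alone. A promoter window was given for 5 of the 9 genes, Siglecf, Ccr3, Il5ra, Epx and Rnase2a, among 32851 windows in all. The STAT6 string, TTC and GAA with 4 free bases between them, occurred in 6.95% of all windows and in those of Il5ra and Epx, and not in those of Rnase2a and Rnase2b. The shorter TTCNNNGAA occurred in 8.30% of windows and in none of these 6. The GATA strings AGATAA (11.2% of windows) and TGATAA (9.05%) occurred in the windows of Ccr3 and Il5ra and in that of Siglecf. GAGGAA, the core that PU.1 binds, occurred in 28.3% of windows and in those of Siglecf, Ccr3, Il5ra and Rnase2a. TATAAA occurred in 13.6% and in that of Epx. Each string was counted on its own, and overlaps between strings were not removed.

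The eotaxins are the ligands of the set. Ccl24 encodes eotaxin-2, a Ccr3 ligand that mouse macrophages make under type 2 cytokines. Wild type vehicle arrays read 7.33, 7.67 and 6.70, and wild type αGalCer arrays 11.71, 10.76, 10.49 and 11.35. The lowest treated array was above the highest vehicle array. The rise was 3.84 ± 0.27, 14.3-fold, with an adjusted p of 2.64e-07, and it lay between 3.41 and 4.06 in every alternative tried. In knockout arrays Ccl24 read 7.82, 7.48 and 7.59 after vehicle and 7.73, 7.81 and 7.67 after αGalCer. These groups overlapped, and the change of 0.11 ± 0.29 had a 95% interval of -0.52 to 0.73 (adjusted p = 0.943). The effects differed between genotypes by -3.74 ± 0.40 (adjusted p = 2.75e-05). After αGalCer Ccl24 was 10.1-fold lower in the knockout (adjusted p = 6.93e-07).

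Ccl11 encodes eotaxin-1, which fibroblasts, smooth muscle and other stromal cells make. Wild type vehicle arrays read 9.84, 10.00 and 9.84 and wild type αGalCer arrays 10.85, 10.35, 10.44 and 10.92, without overlap. The rise was 0.75 ± 0.21, 1.68-fold, with an adjusted p of 0.0101. Knockout vehicle arrays read 9.33, 10.18 and 10.32 and knockout αGalCer arrays 10.26, 10.38 and 10.42, which overlapped through the 2 higher vehicle arrays. The knockout change was 0.41 ± 0.22 (adjusted p = 0.748), and the low array, replicate 1, was the one with both muscle and epithelium signal. For Ccl11 the difference of the effects was -0.33 ± 0.30 with an interval of -0.98 to 0.32 (adjusted p = 0.494). It was called in 2 of 24 other settings, without knockout vehicle replicate 1 (-0.64, adjusted p = 0.0288) and with array weights (-0.58, adjusted p = 0.0251). Without the muscle arrays or the epithelium arrays, which include that replicate, it was -0.74 and -0.53, each with 1 vehicle array left in a genotype.

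After αGalCer, Ccl11 was not called between the genotypes (-0.28 ± 0.21, adjusted p = 0.316). Whether the changes of Ccl11 and Ccl24 differed from each other was not tested. Their common receptor gene Ccr3 was not called in any of the 5 comparisons with all 13 arrays in the fit.

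**Figure D3:**
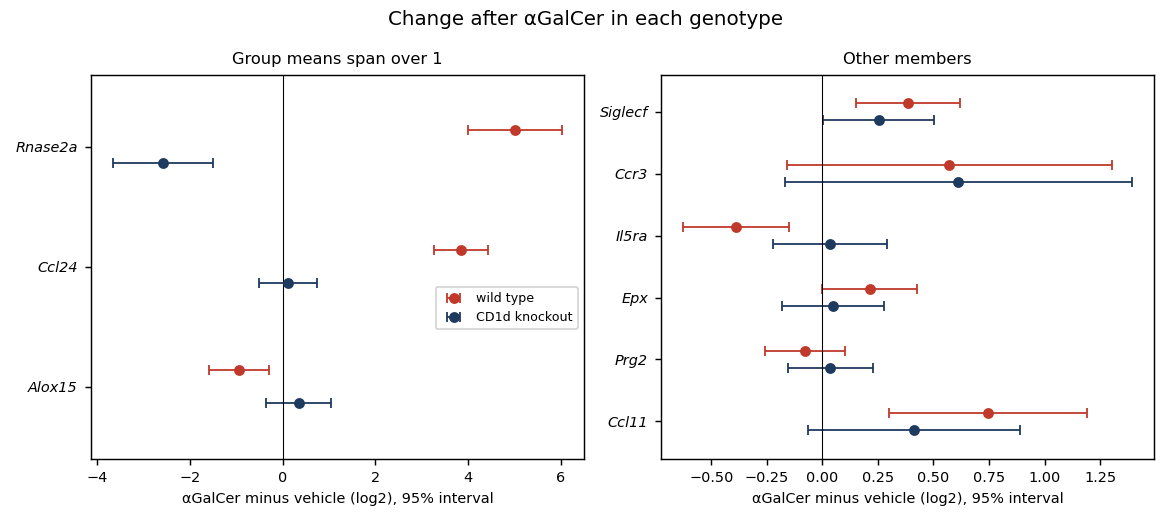
Change of each of the 9 genes after αGalCer (log2, αGalCer minus vehicle) in wild type and knockout fat, with the 95% interval from limma; the left panel holds the genes whose 4 group means span more than 1, on a wider axis. Rnase2a (5.01) and Ccl24 (3.84) rise in wild type, Rnase2a lies below 0 in the knockout (-2.58), and the knockout intervals of Ccl24, Alox15, Il5ra, Epx, Prg2, Ccr3 and Ccl11 include 0.

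In vehicle-treated fat none of the 9 genes was called between genotypes, against 0.112% of all genes (21 genes). An unadjusted p under 0.05 was found for 1258 genes, 6.69%, and for 1 of the 9. All 9 knockout means were higher than the wild type means, but none of the 9 had groups that did not overlap, against 11.2% of all genes. The median difference of the 9 was 0.15, against 0.02 over all genes. After αGalCer 4 of the 9 were called, Il5ra and Alox15 higher and Rnase2a and Ccl24 lower in the knockout, and the groups of these 4 did not overlap. The value of Rnase2a is again a description, since it contains the group for which the gene was chosen. Over all genes 41.1% were called, 21.9% higher and 19.2% lower, and 50.4% had groups that did not overlap. The comparisons share arrays, since the wild type αGalCer group enters 3 of the 5, so calls in them are not independent of each other.

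The other genes of eosinophil biology were read from a list of 54 genes, of which 47 had a probe set of their own. In wild type fat 31 of the 47 were called after αGalCer, 27 higher and 4 lower, with a median change of 0.68 against -0.02 over all genes. Over all genes 41.9% were called. In knockout fat none was called, and 6 had an unadjusted p under 0.05, against 6.81% of all genes. A different effect between genotypes was called for 22 of the 47, 20 of them lower in the knockout, against 28.2% of all genes. The list was written with earlier results of these arrays known, so its counts are a description. The same holds for the counts of its parts. They stand beside 19.8% of all genes called higher in wild type fat and 22.0% called lower.

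Of 12 ligands, 8 rose and 1 fell in wild type fat. Ccl8 and Ccl7 are monocyte chemoattractants, of which Ccl7 also attracts eosinophils through Ccr3. Ccl7 rose by 3.96 ± 0.23, 15.5-fold (adjusted p = 1.01e-07), and Ccl8 by 4.63 ± 0.41, 24.8-fold (adjusted p = 1.44e-06). Il5, the main growth factor of eosinophils, read 3.29, 3.34 and 3.25 in wild type vehicle arrays and 4.11, 3.74, 3.60 and 4.28 after αGalCer, without overlap. Il5 rose by 0.64 ± 0.15 (adjusted p = 0.00349), while the gene of its receptor α chain fell, as described above. The difference of the Il5 effects was not called (-0.56 ± 0.22, adjusted p = 0.0778). Il4 rose by 1.66 ± 0.15, Il13 by 0.74 ± 0.22 and Csf2 by 0.71 ± 0.10. Without vehicle replicate 3 the Il13 change was 0.68 (adjusted p = 0.0624). Il33, an alarmin that activates group 2 innate lymphoid cells, rose by 0.92 ± 0.29 with overlapping groups (adjusted p = 0.0234). Without vehicle replicate 1 its change was 0.69 (adjusted p = 0.114). Differences of the effects were called for Il4 (-1.43 ± 0.22, adjusted p = 0.00038) and Csf2 (-0.61 ± 0.14, adjusted p = 0.00578). They were not called for Il13 (-0.88 ± 0.33, adjusted p = 0.0625) and Il33 (-0.58 ± 0.43, adjusted p = 0.391).

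Ccl28, an epithelial chemokine that acts on Ccr3 and Ccr10, was called lower by 2.35 on the log2 scale in wild type fat (SE 0.58, adjusted p = 0.00509). Its vehicle arrays read 7.55, 5.42 and 7.54, high in the same replicates 1 and 3 in which the epithelium markers were high. Knockout vehicle arrays read 8.08, 6.59 and 5.32, again in the order of the epithelium markers. Without the 3 arrays highest in epithelium markers, which leaves 1 wild type vehicle array, the wild type change of Ccl28 was -0.94. The fall was thus larger with those arrays than without them. Alox12, another lipoxygenase gene, was called lower by 1.81 (SE 0.48, adjusted p = 0.00849) and had the same order of vehicle arrays. Its change was -1.02 without the 3 arrays highest in epithelium markers.

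Of 12 measured receptor and adhesion genes, 10 rose and none fell, with a median change of 1.81. Cd300lf, an inhibitory receptor of myeloid cells, rose by 4.23 ± 0.27, 18.8-fold (adjusted p = 1.53e-07), from 3.82 to 4.05 in vehicle arrays to 7.29 to 8.82 after αGalCer. Cysltr2, a receptor for cysteinyl leukotrienes, rose by 2.64 ± 0.15 (adjusted p = 8.80e-08). Csf2rb encodes the β chain with which Il5ra signals and which also serves the receptors of interleukin 3 and granulocyte-macrophage colony-stimulating factor. It rose by 1.70 ± 0.14, and Csf2rb2, which encodes the interleukin 3 specific β chain of mice, rose by 1.92 ± 0.20. Hrh4, the histamine H4 receptor of eosinophils and mast cells, changed by 0.15 ± 0.09 (adjusted p = 0.209), and Adgre4 by 0.04 ± 0.23 (adjusted p = 0.926).

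Of 9 transcription and differentiation genes, 4 rose and 2 fell. Spi1, which encodes the myeloid factor PU.1, rose by 2.41 ± 0.18 (adjusted p = 4.47e-07), and Id2 by 1.46 ± 0.17 (adjusted p = 1.23e-05). Gata2, a factor of mast cells, basophils and fat precursors, fell by 1.37 on the log2 scale (SE 0.16, adjusted p = 1.32e-05). Cebpa, which adipocytes and myeloid precursors use, fell by 1.29 (SE 0.12, adjusted p = 1.78e-06). Gata1, the factor that eosinophil development requires, was called higher by 0.35 ± 0.12 (adjusted p = 0.0348), a call lost without any 1 of the 3 vehicle arrays (adjusted p from 0.0561 to 0.122) and without αGalCer replicate 2. The change of Gata1 was 0.35 without the muscle arrays and 0.46 without the epithelium arrays. Among 8 lipid mediator genes Alox5ap, the helper protein of 5-lipoxygenase, rose by 1.69 ± 0.17 (adjusted p = 3.66e-06). Ltc4s, which makes leukotriene C4 in eosinophils and mast cells, changed by -0.06 ± 0.12 (adjusted p = 0.757).

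**Figure D4:**
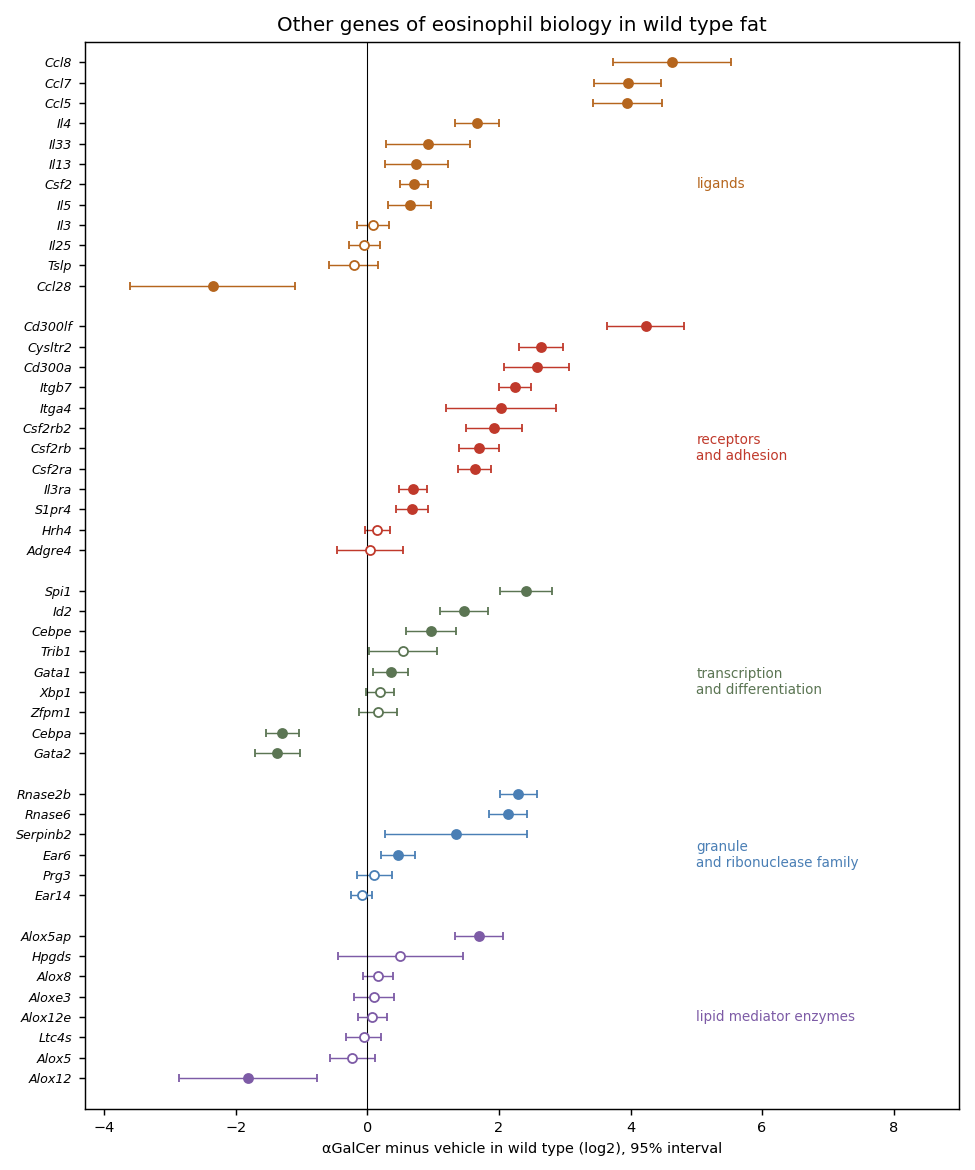
Change in wild type fat after αGalCer (log2, αGalCer minus vehicle) of 47 other genes of eosinophil biology, in 5 groups, with 95% intervals; filled points were called (31 genes) and open points were not. The receptor and adhesion genes lie mostly to the right of 0 (10 of 12 called higher), while Prg3, Ear14, Hrh4 and Adgre4 lie near 0.

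Marker lists of other cells differed between the same groups. Their counts in wild type fat stand beside 19.8% of all genes called higher and 22.0% called lower, and are descriptions. In wild type fat 7 of 8 macrophage markers were called higher after αGalCer, and the mean of the list went from 9.02 to 9.64 in vehicle arrays to 10.78 to 11.08. It was 9.42 to 9.55 and 9.61 to 10.05 in knockout arrays. Neutrophil markers were called higher for 6 of 8, with a mean of 4.29 to 4.68 in vehicle and 5.43 to 6.64 in αGalCer arrays of wild type mice. Of 8 mast cell markers 1 was called higher and 2 lower, and of 5 basophil markers 1 was called higher, with the list mean between 3.41 and 3.61 in all 13 arrays. Of 6 measured markers of group 2 innate lymphoid cells, which include Il5 and Il13, 5 were called higher and 1 lower. Adipocyte markers were called lower for 6 of 6 and fibroblast and fat progenitor markers for 5 of 7. Of 7 mesothelium markers 1 was called lower. The mean of that list was 8.05 to 8.75 in wild type vehicle arrays and 7.76 to 8.30 after αGalCer. Alveolar macrophages also carry Siglec-F, and of 6 of their markers 2 were called higher and 2 lower. The mean of that list was 7.38 to 7.79 in wild type vehicle arrays and 8.46 to 8.67 after αGalCer. The largest part came from Chil3, the secreted chitinase-like protein Ym1, which rose by 7.07 ± 0.35 (adjusted p = 4.09e-08). Wild type group means of Car4 and Marco also rose. Those of Fabp1 (6.36 to 4.80), Cidec (12.52 to 11.62) and Krt79 (6.42 to 6.21) fell. The vehicle and αGalCer arrays overlapped for Marco and Krt79, and Cidec is also on the adipocyte list. Without detection calls none of the markers in these lists is called present or absent. The part of these cells in the levels of Rnase2a, Ccl24, Siglecf or Ccl11 was not tested.

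**Figure D5:**
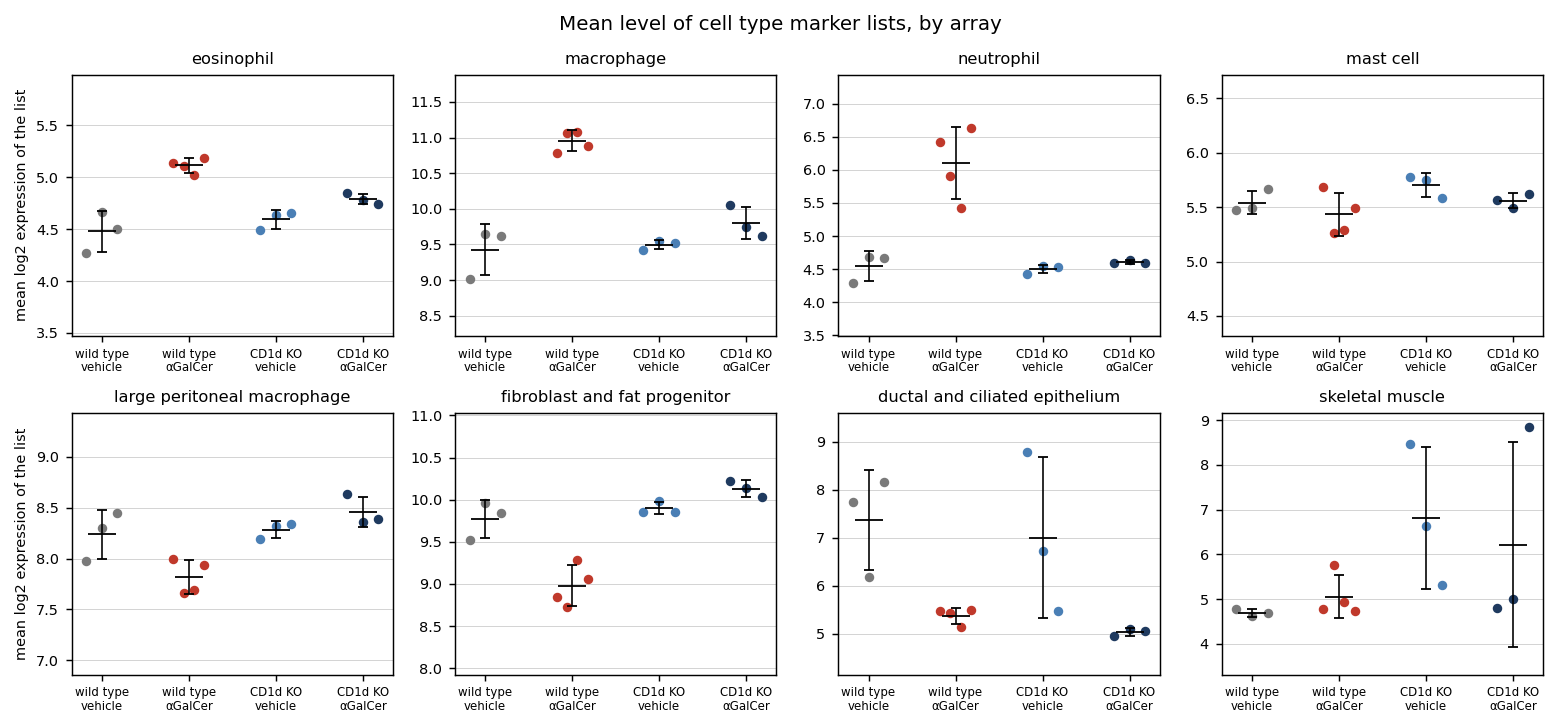
Mean log2 expression of 8 cell type marker lists in each array; points are arrays, and the bar and whiskers are the group mean and SD. Macrophage and neutrophil lists are highest in the 4 wild type αGalCer arrays, and the epithelium and muscle lists are high in single vehicle or knockout arrays (up to 8.79 and 8.85).

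The genes whose pattern was most like that of a member were sought for the 3 members whose group means spanned more than 1, by Pearson's r of the log2 values over the 13 arrays. The arrays fall into groups, so r mostly follows the group means, and no p is given. For Ccl24 these were Ccl7 (r = 0.992), Cd300lf (0.991) and Ankrd55 (0.990), and 1605 genes had an r over 0.9. Around the group means r was 0.799, 0.827 and 0.764. Here and below the genes were picked by an r that includes this part, so such values are descriptions. For Rnase2a they were Slc25a53 (r = 0.963), Dnase1l3 (0.958) and Pdk3 (0.957), and 208 genes had an r over 0.9. Picking by r favours genes that share the signs of the Rnase2a changes. Each of these 3 had a positive change in wild type and a negative one in the knockout, where no gene was called. The changes of Dnase1l3, a secreted nuclease of macrophages and dendritic cells, were 2.73 and -0.71. The knockout changes of Slc25a53 and Pdk3 were -0.28 and -0.35. Around the group means r with Rnase2a was 0.499, 0.365 and 0.308. For Alox15 they were Dapk2 (r = 0.944), Sox18 (0.919) and Rasd1 (0.915), and 17 genes had an r over 0.9. Sox18 is a transcription factor of endothelial cells, and its change in wild type fat was -1.18. Around the group means r was 0.854, 0.833 and 0.721. Between Rnase2a and Ccl24, the 2 genes with the largest rises of the set, r was 0.886 over all arrays and 0.163 around the group means.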

How the data were processed

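Epididymal fat RNA was measured on 13 Affymetrix arrays, in 4 groups taken from the labels. The authors deposited log2 expression values per probe set, which were made with RMA (background correction, quantile normalisation and summary of the probes), per the submitters' processing notes. The RMA version, chip description and build were not stated in the sources. Values ran from 1.53 to 13.84 and array medians from 5.68 to 5.83. Of 35556 probe sets, 21218 had 1 gene symbol, 1881 several and 12457 none. Symbols were updated through Entrez identifiers (21185) or accessions (3), and 30 were kept; the RefSeq table (GRCm38.p6) served for names, chromosomes and gene order. The probe set with the highest mean stood for each of 18818 genes, 1388 of which had more than 1, and no dim gene was left out.

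The 13 arrays were fitted together in limma 3.58.1 under R 4.3.3, with 1 mean for each group, 9 residual degrees of freedom and eBayes with an intensity trend. Tests were two-sided, and p-values were adjusted by Benjamini-Hochberg over all genes at a threshold of 0.05. Every p in the text comes from this limma model, ± after a change is its standard error, and ± after a level is the SD. The steps were tested on simulated data. The number of arrays limits the precision. No label says that replicates were separate mice, so the p-values cover only variation among the arrays of a group, some of which may be technical.

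The members, the gene lists and the rule for naming genes were chosen with earlier results of these data known. Besides the 9 members, the rule named up to 4 called genes of each list (the 2 largest rises and falls), the 3 genes most alike to each member whose group means spanned over 1, marker genes and Cd1d1; other list genes named in the text (Il5, Il4, Il13, Csf2, Il33, Csf2rb, Csf2rb2, Hrh4, Adgre4, Gata1, Ltc4s, Prg3, Ear6, Ear14 and Serpinb2) were chosen after their values were seen. No label says what the replicate numbers mark, so they were not taken to pair arrays. Same-numbered arrays of different groups had deviations that correlated from -0.20 to 0.48. The highest values were between the vehicle arrays of the genotypes, for replicates 1 and 2. Arrays with different numbers were not compared, so whether the numbers pair arrays was not settled. Promoter windows were aligned globally with free ends, and motifs were sought on both strands. Other normalisations, variance models, filters, weights, a replicate block and leaving out arrays were tried.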

Additional observations from a re-analysis of the deposited data

Results flagged for a closer look

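In the wild type αGalCer group, 1 array stood apart for 2 of the genes by Dixon's ratio, the gap to the nearest array over the range of the group. For Alox15 it was replicate 1, the highest at 7.91 against 6.94 to 7.07, with a ratio of 0.862. For Rnase2a it was replicate 2, the lowest at 11.98 against 12.37 to 12.43, with a ratio of 0.863. The critical value for 4 arrays is 0.829, 22 such groups were examined, and chance passes it in about 1 of 20.

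The αGalCer effect differed between genotypes (knockout minus wild type, limma interaction) by 1.29 for Alox15, by -7.59 for Rnase2a and by -3.74 for Ccl24. Rnase2a was chosen for its wild type rise, so its value is a description. No explanation of these differences was tested.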

How the results depend on the processing

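The 45 results of the 9 genes (9 genes in 5 comparisons) were recomputed under 25 other settings, which gave 1096 values; 1060 kept their side of the threshold, 26 lost and 10 gained a call. No called value changed sign, and 35 values of results that were not called did. Ccl24 kept its calls in wild type, in the difference of effects and after αGalCer in every setting run, with wild type rises of 3.41 to 4.06. The wild type change of Rnase2a, a description, was 4.18 to 5.43. Members called in wild type fat fell from 6 to 2 at an adjusted p under 0.01. With array weights 2 members were called in knockout fat (Siglecf 0.39, adjusted p = 0.0455, and Rnase2a -3.68, adjusted p = 0.00659) and 1 between genotypes after vehicle (Rnase2a 2.32, adjusted p = 0.0316), against none without weights. Both Rnase2a values need most of the weight on knockout vehicle replicate 2, the highest of its group. Leaving out each array in turn gave 5 to 6 members called in wild type, 0 in knockout, 2 to 3 for the difference, 0 after vehicle and 4 after αGalCer. It gave 28 to 32 of the 47 other genes in wild type. Because no label says what the replicate numbers mark, the replicate block is given only here. It called 5, 0, 3, 0 and 4 members and 29 of the other genes. The block ended the calls of Alox15 in wild type (-0.89, adjusted p = 0.0672) and for the difference (1.23, adjusted p = 0.0942). It called the difference of Il5ra (0.52, adjusted p = 0.0215). Leaving out the 3 arrays highest in epithelium genes (wild type vehicle replicates 1 and 3 and knockout vehicle replicate 1) was a setting chosen after seeing the data. It left 1 wild type vehicle array, assumed to vary like the other groups, which alone can end a call. Siglecf, Il5, Il13, Il33, Ccl28, Gata1, Cebpe, Ear6 and Serpinb2 lost the wild type call there. Siglecf changed by 0.37, Ccl28 by -0.94 and the others by 0.39 to 0.76, and the cause was not tested. Alox15 in wild type lost its call in 8 of 25 settings. The level near the floor limits Il5ra, Epx and Prg2 most: with genes of a mean under 5 left out, these and Ccr3 were not tested.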
